A study of Mus musculus with 8 samples.

Results

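The genes described here encode the subunits of the mitochondrial respiratory chain and of ATP synthase that are transcribed in the nucleus. They were chosen by gene symbol alone (Nduf, Sdh, Uqcr, Cyc1, Cycs, Cox4 to Cox8 and Atp5 genes, pseudogenes left out), and the rule itself uses no measured value. The rule found 87 of the 55335 gene identifiers in the table, under 86 symbols, since Atp5o has 2 identifiers. By complex, 36 members belong to complex I, 4 to complex II, 9 to complex III, 19 to complex IV and 18 to complex V, and Cycs stands apart. Ndufa4, named after complex I, was counted with complex IV, of which its protein is now known to be a subunit. Cox7a2l, a supercomplex assembly factor, and Atp5s, a gene whose product is named a coupling factor, came in by symbol and were kept.

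The RNA came from MC3T3-E1, an immortal mouse line of calvarial origin that serves as a model of early osteoblasts, kept for 3 days with 1 of 2 scaffolds. In 4 libraries this was TABS, the Trio-Active bone scaffold, and in 4 it was HA, hydroxyapatite with magnesium. Each value in TABS is therefore set against another scaffold and not against untreated cells. The labels do not say whether replicates were separate cultures, so the spread behind the p-values may be technical. In such bulk RNA, fewer cells of a type and less RNA per cell cannot be told apart.

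Values are FPKM (fragments per kilobase of transcript, scaled to the library), as the authors deposited them. All FPKM of a library summed to between 304893 and 307263 in TABS and between 312629 and 317439 in HA. Each of the 8 libraries correlated best with one of its own group. All 8 osteoblast lineage genes looked up were detected and tested, and limma called 5 of them lower and 1 higher in TABS. Of those called lower, Alpl passed the filter on low values only through HA, the group in which it was higher. It was at 0.46 ± 0.06 FPKM in TABS and 1.36 ± 0.31 FPKM in HA (SD, n = 4 each), so its call adds no support. Over all tested genes 2.90% were called lower and 4.49% higher. Among the osteoblast lineage genes, Col1a1 was at 889 ± 27.3 FPKM in TABS and 1171 ± 141 FPKM in HA, and Spp1, the one called higher, at 3305 ± 239 FPKM in TABS and 2431 ± 259 FPKM in HA (SD, n = 4 each). Markers of macrophages and endothelium stayed below 1 FPKM in every library, as did those of striated muscle, where Myod1, Myog and Myh1 were listed at 0. Of 3 adipocyte genes, Fabp4 alone passed the filter on low values, at 3.15 ± 0.22 FPKM in TABS and 2.94 ± 0.32 FPKM in HA.

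The respiratory chain moves electrons from NADH and succinate to oxygen and pumps protons across the inner mitochondrial membrane. Complex I takes electrons from NADH, complex II from succinate, complex III passes them to cytochrome c, and complex IV hands them to oxygen. Complex V, ATP synthase, makes ATP as the protons flow back. Most subunits are nuclear genes and the remaining ones are encoded in mitochondrial DNA, so all complexes except II need both genomes. Osteoblasts draw on both glycolysis and oxidative phosphorylation as they differentiate and build matrix. The transcription factors NRF1, GABPA (an ETS factor) and YY1 are known to regulate nuclear genes of the pathway through promoter motifs.

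Promoter sequences in RefSeq (build GRCm38.p6, 250 bases before to 50 after each start) could be matched to 68 of the 86 symbols. The NRF1 motif (GCGC, then AT, then GCGC, which reads the same on both strands) was found in 5 of the 68, or 7.35%, against 1.07% of 27025 symbols with a promoter and 2.52% of the 8288 among the genes tested below. The looser form (GCGC, any 2 bases, then GCGC), which covers every exact match, was found in 19 of the 68 (27.9%), against 7.00% of all promoters and 16.2% of those of tested genes. The ETS motif CCGGAAGT, on either strand, was found in 5 (7.35%, against 4.31% and 10.3%), and the YY1 motif AAGATGGCG in 7 (10.3%, against 1.64% and 4.04%). These are matches of letters, not sites shown to be bound. The windows below are 80 bases upstream of the start of 4 members with the exact NRF1 motif, given 5′ to 3′ on the gene's strand with the motif in capitals.
Atp5k (chr5:108434405-108434484, minus strand): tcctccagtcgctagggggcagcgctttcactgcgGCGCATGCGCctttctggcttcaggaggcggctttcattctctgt
Cox6a1 (chr5:115349076-115349155, minus strand): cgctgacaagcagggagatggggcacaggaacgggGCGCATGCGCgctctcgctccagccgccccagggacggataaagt
Atp5g2 (chr15:102671048-102671127, minus strand): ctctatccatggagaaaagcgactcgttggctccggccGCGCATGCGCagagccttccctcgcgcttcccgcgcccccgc
Ndufa11 (chr17:56717667-56717746, plus strand): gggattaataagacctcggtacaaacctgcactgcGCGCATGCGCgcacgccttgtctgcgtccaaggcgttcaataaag

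The motif began 50 bases before the start in Atp5k, 42 in Atp5g2, 60 in Ndufa11 and 162 in Cox6a1. In the fifth member with it, Uqcrc1, it lay after the start. The 19 members with the looser form had a median log2 fold change of -0.02 between TABS and HA, and the 46 tested members with a promoter but no match had one of -0.05.

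Members differed widely in level. The highest was Atp5b, the catalytic beta subunit of ATP synthase (ENSMUSG00000025393, chromosome 10, 128083273 to 128090391 in GRCm38). Atp5b stood at 351, 346, 368 and 376 FPKM in TABS 1 to 4, against 386, 374, 360 and 340 FPKM in HA 1 to 4. Next came Cox6a1, a complex IV subunit, at 275, 274, 303 and 296 FPKM in TABS, against 352, 332, 290 and 290 FPKM in HA. In both genes the ranges of the groups overlapped, and HA 1 was the highest library.

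Within complex I the lowest mean FPKM over 8 libraries was 3.86, in the accessory subunit Ndufb2, and the median of the 36 tested members was 28.0. Complex II was the most even, from 64.8 in the membrane anchor Sdhd to 40.7 in the flavoprotein Sdha, a 1.59-fold range. Complex III ran from 80.3 in the hinge protein Uqcrh to 16.7 in Uqcrq. Complex IV ran from 302 in Cox6a1 to 1.72 in Cox7b2, and complex V from 363 in Atp5b to 2.20 in Atp5s. These levels are per length, and the gene length that the authors divided by is not stated in the labels. Across the 80 tested members, mean FPKM fell with the summed exon length of the gene model (Spearman -0.30, a description across genes, which are not replicates). Ndufb2, with 5628 exon bases, and Atp5l, with 6443, are among those long models, so low levels of such members are uncertain.

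Several complex IV subunits have paralogs used in other tissues, and these were at or near 0. Cox8b and Cox8c, the muscle and testis forms beside the general Cox8a, were listed at 0 in all 8 libraries. The hypoxia-responsive lung form Cox4i2 reached at most 0.11 FPKM, the testis form Cox6b2 0.034 FPKM and the heart and muscle form Cox7a1 0.20 FPKM. The paralog Cox7b2 was the exception, at 1.43, 1.28, 1.96 and 2.10 FPKM in TABS, against 1.498, 1.55, 1.55 and 2.36 FPKM in HA. It took 4.05% ± 0.98 of the summed FPKM of Cox7b and Cox7b2 in TABS and 3.79% ± 0.80 in HA (SD, n = 4 each).

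The c ring of ATP synthase, the rotor through which protons pass, is built from 1 mature protein that 3 genes encode with different targeting peptides. Of the summed FPKM of these genes, Atp5g1 held 16.3% ± 0.77 in TABS and 17.4% ± 1.53 in HA, Atp5g2 held 43.1% ± 1.54 in TABS and 41.4% ± 0.58 in HA, and Atp5g3 held 40.6% ± 2.001 in TABS and 41.2% ± 1.21 in HA (SD, n = 4 each). The gene model of Atp5g1 has 4912 exon bases, against 1675 in Atp5g2 and 2181 in Atp5g3. Since the length behind the FPKM is not stated, the order of these shares between genes is uncertain. For Atp5g1 the libraries stood at 22.02, 20.98, 23.8 and 21.5 FPKM in TABS, against 28.0, 24.4, 22.4 and 22.4 FPKM in HA. The 2 groups overlapped, with HA 1 highest, and the log2 fold change of -0.13 did not pass the test (limma adjusted p = 0.319).

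The comparison of TABS with HA asked whether the transcripts of the oxidative machinery differed between the scaffolds, and no subunit gene passed the test. Of the 87 members, 80 had at least 1 FPKM in at least 4 libraries and were tested. The fit was limma on log2(FPKM + 1) over 11280 genes, with Benjamini-Hochberg adjusted p under 0.05 as threshold. None of the 80 was called higher and none lower, where 7.38% of all tested genes were called (4.49% higher and 2.90% lower). At an unadjusted limma p under 0.05, 5 members were lower and 0 higher, against 24.1% of all tested genes (13.2% higher and 10.8% lower). The libraries of the 2 groups did not overlap in 1 tested member, which was lower in TABS, against 18.0% of all tested genes (10.8% higher and 7.15% lower). The 7 members not tested were Cox4i2, Cox6a2, Cox6b2, Cox7a1, Cox8b, Cox8c and the second Atp5o identifier, which was listed at 0.

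The intervals were narrow. In 70 of the 80 members (87.5%) the 95% interval of the fold change lay within 1.25-fold in either direction, on the log2(FPKM + 1) scale, against 75.1% of all tested genes. Within 1.5-fold it lay in 79 (98.8%), against 94.4% of all tested genes, with Cox8a outside. The other 9 members whose interval reached beyond 1.25-fold were Ndufa3, Ndufa5, Uqcr10, Uqcr11, Cox4i1, Cox7a2l, Cox7b, Cox7c and Atp5k.

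**Figure D1:**
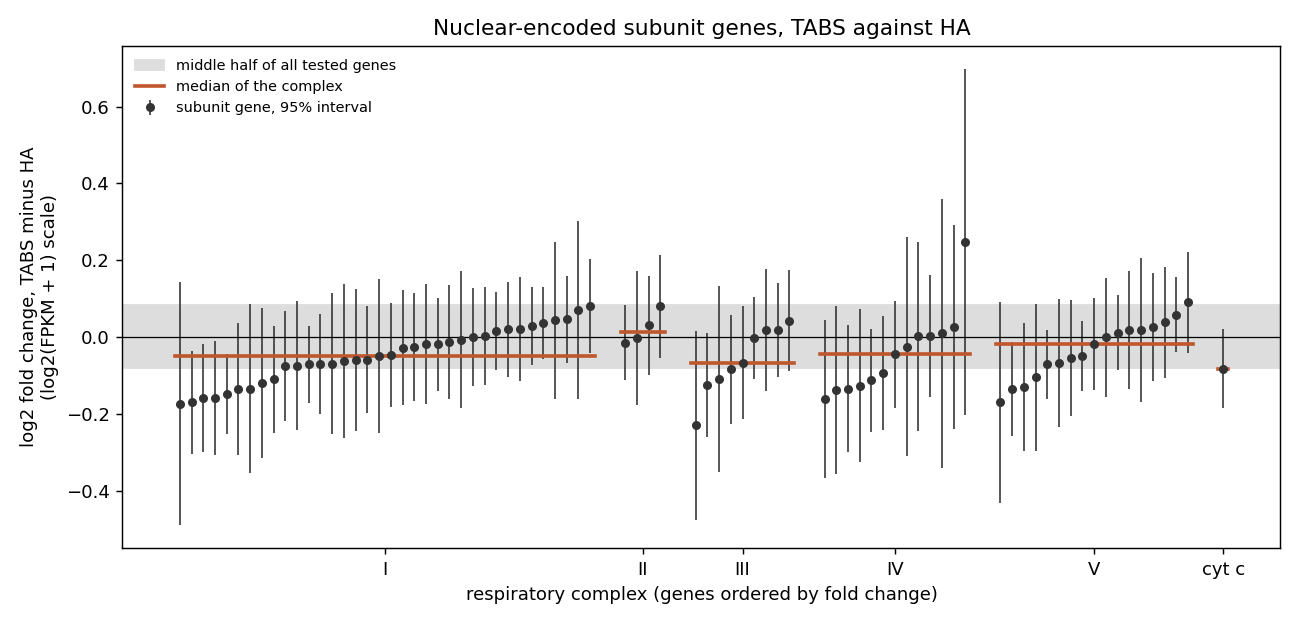
Log2 fold change (TABS minus HA) of the 80 tested subunit genes by complex, each point 1 gene with its 95% limma interval, the coloured line the median of the complex and the grey band the middle 50% of all 11280 tested genes. The medians lie between -0.07 and 0.01 for complexes I to V, and Cox8a, the highest point in complex IV, has the widest interval.

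Median log2 fold changes were -0.05 in complex I (36 tested), 0.01 in complex II (4), -0.07 in complex III (9), -0.05 in complex IV (13) and -0.02 in complex V (17), beside 0.01 over all tested genes. Fold changes below 0 were seen in 25, 2, 6, 8 and 10 of those members, in the same order of complexes. Over all 80 the median was -0.04, with 52 below 0 (65.0%, against 48.0% of all tested genes). With other scalings 56 of 80 (median of ratios), 58 of 80 (quantile normalization) and 42 of 81 (TPM) lay below 0. Under TPM the medians were -0.01 over the members and 0.04 over all tested genes. Genes did not all move by the same amount, with Atp5b at 0.02 under TPM, against -0.02, and the low Atp5s at -0.14 in both. After correction for GC content and length 40 of 80 lay below 0, and both medians were within 0.01 of 0.

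Summed over a complex, the FPKM of the nuclear subunits differed by less than the spread between libraries. Complex I summed to 1122 ± 39.6 FPKM in TABS and 1148 ± 61.7 FPKM in HA, and complex II to 194 ± 5.999 FPKM in TABS and 192 ± 8.55 FPKM in HA (SD, n = 4 each). Complex III summed to 435 ± 21.5 FPKM in TABS and 456 ± 27.9 FPKM in HA. Complex IV summed to 1122 ± 94.2 FPKM in TABS and 1155 ± 42.4 FPKM in HA, and complex V to 1340 ± 29.1 FPKM in TABS and 1345 ± 45.3 FPKM in HA. All members together took 1.38% ± 0.06 of all FPKM in TABS and 1.37% ± 0.06 in HA. The groups overlapped in every one of these sums.

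**Figure D2:**
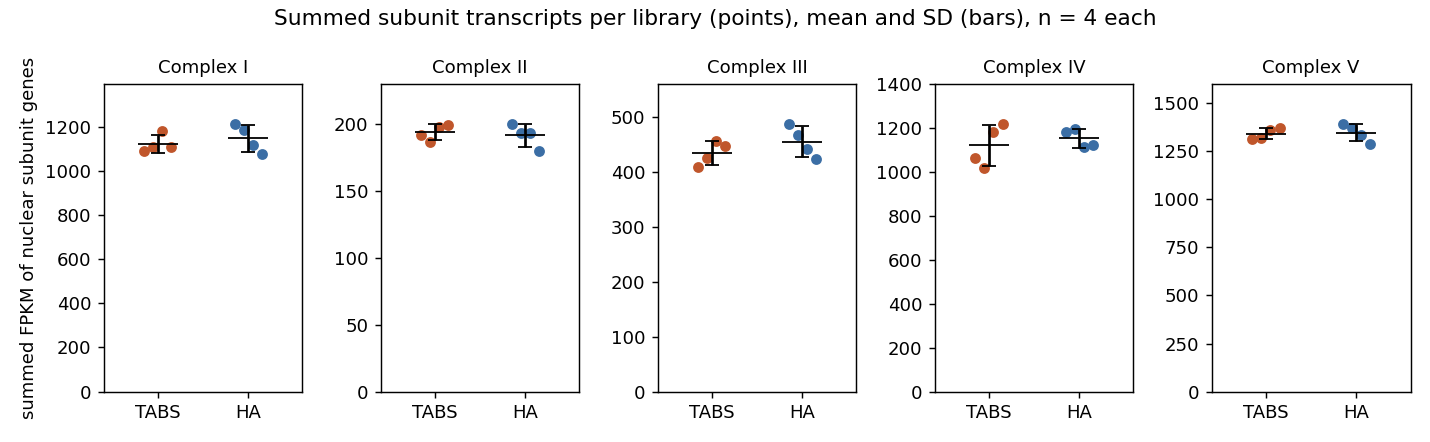
Summed FPKM of the nuclear subunit genes of complexes I to V in each TABS library (left) and HA library (right), points for libraries and bars for mean ± SD (n = 4 each). The groups overlap in all 5 complexes, as for complex I at 1122 ± 39.6 in TABS and 1148 ± 61.7 in HA.

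In complex I the 4 members with an unadjusted limma p under 0.05 were all accessory subunits, and all were lower in TABS. Ndufb4, a subunit of the membrane arm (ENSMUSG00000022820, chromosome 16, 37647170 to 37654453), stood at 8.62, 8.77, 9.27 and 8.54 FPKM in TABS, against 10.2, 10.3, 9.30 and 9.72 FPKM in HA. All TABS libraries lay below all HA libraries, though TABS 3 and HA 3 nearly touched. Its log2 fold change was -0.15 ± 0.05 SE (limma adjusted p = 0.085), and 37.0% of its 50-base words occur in other transcripts, pseudogenes among them, so its value is uncertain.

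Ndufs4, an accessory subunit whose loss causes Leigh-like disease in mice (ENSMUSG00000021764, chromosome 13, 114287795 to 114388258), stood at 7.55, 8.02, 8.34 and 7.86 FPKM in TABS, against 8.03, 9.22, 9.75 and 9.31 FPKM in HA. HA 1 lay among the TABS libraries and the other 3 HA libraries above all of them. The log2 fold change was -0.17 ± 0.06 SE (limma adjusted p = 0.121). Without HA 1 it was -0.22 and passed (limma adjusted p = 0.0311, where 6.37% of all tested genes were called), the only call on a member of the 80 in the alternatives.

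Ndufa1, a small membrane subunit, stood at 43.7, 50.9, 51.1 and 47.8 FPKM in TABS, against 57.3, 54.4, 49.8 and 54.8 FPKM in HA, with the groups overlapping (-0.16, limma adjusted p = 0.157). Ndufb2 stood at 3.87, 3.14, 3.87 and 3.49 FPKM in TABS, against 4.43, 3.87, 3.91 and 4.26 FPKM in HA (-0.16, limma adjusted p = 0.181). The lowest fold change in complex I was that of Ndufa3, another accessory subunit (-0.17, with a 95% interval of -0.49 to 0.14).

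The 7 nuclear core subunits of complex I, which carry the flavin and the iron-sulfur clusters or line the quinone site, and its 29 accessory subunits lay on different sides of 0. The core genes had a median log2 fold change of 0.04, with 2 of 7 below 0. The accessory genes had a median of -0.06, with 23 of 29 below 0. The core genes have longer transcripts (median 1661 bases, against 918) and a higher GC content (54.1%, against 50.3%). After correction for GC content and length the medians were 0.05 and -0.03. Without HA 4 the core median was -0.01 and the accessory one -0.08, without HA 1 the accessory median was -0.02, and without TABS 3 the core median was within 0.01 of 0. The difference was not tested, and no gene of either kind was called.

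Complex II, the succinate dehydrogenase that also works in the citric acid cycle, showed the smallest fold changes. They ran from -0.01 in Sdhd to 0.08 in Sdha. Sdha stood at 39.3, 41.7, 43.1 and 43.2 FPKM in TABS, against 35.3, 40.8, 41.7 and 40.5 FPKM in HA, where HA 1 was the lowest and the groups otherwise overlapped (limma adjusted p = 0.449). In all 4 genes the 95% interval lay within 1.25-fold.

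In complex III, Uqcr10, a small subunit of the cytochrome bc1 complex (ENSMUSG00000059534, chromosome 11, 4701973 to 4704342), had the lowest fold change of all tested members. It stood at 41.5, 44.6, 55.4 and 51.0 FPKM in TABS, against 66.3, 57.6, 48.8 and 53.8 FPKM in HA. TABS 1 and TABS 2 were below every HA library, while TABS 3 and TABS 4 were within the HA range. The log2 fold change was -0.23, with a 95% interval of -0.48 to 0.02 (limma adjusted p = 0.236). The catalytic subunits encoded in the nucleus stood closer to 0, with Cyc1, cytochrome c1, at 0.02 and Uqcrfs1, the Rieske iron-sulfur protein, at 0.04. The mitochondrially encoded mt-Cytb, cytochrome b, stood at -0.32. Cycs, cytochrome c itself, averaged 21.2 ± 0.93 FPKM in TABS and 22.5 ± 0.86 FPKM in HA (SD, n = 4 each, -0.08, limma adjusted p = 0.313), and 28.2% of its 50-base words occur in other transcripts.

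In complex IV, Cox8a, a small subunit (ENSMUSG00000035885, chromosome 19, 7215153 to 7217616), had the highest fold change of all tested members, and 1 library carried it. It stood at 123, 115, 138 and 240 FPKM in TABS, against 130, 128, 121 and 116 FPKM in HA. TABS 4 was far above all other libraries and the remaining TABS libraries overlapped HA. The log2 fold change was 0.25 ± 0.20 SE (limma adjusted p = 0.488), and 0.01 without TABS 4 (limma adjusted p = 0.940). Cox7a2l also spread within TABS, at 178, 115, 157 and 176 FPKM, against 120, 166, 173 and 160 FPKM in HA (0.01, limma adjusted p = 0.978). Cox4i1, a subunit at the matrix and membrane face of the enzyme, averaged 129 ± 11.01 FPKM in TABS and 145 ± 16.7 FPKM in HA (SD, n = 4 each, -0.16, limma adjusted p = 0.316).

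Cox6a2, the heart and skeletal muscle form of Cox6a1 (ENSMUSG00000030785, chromosome 7, 128205435 to 128206387), was too low to be tested. It stood at 0.24, 0.15, 0.17 and 0.29 FPKM in TABS, against 0.52, 0.62, 0.47 and 0.56 FPKM in HA. All TABS libraries lay below all HA libraries. If the smallest step in the table is 1 fragment, these values stood for about 2.50 to 4.81 fragments per library in TABS and 6.64 to 9.96 in HA. With no filter on low values the log2 fold change was -0.35 and passed (limma adjusted p = 0.015, where 1.92% of 28201 genes were called), and after rescaling to TPM it was -0.69 (limma adjusted p = 0.00904, where 8.60% of 13481 genes were called). On the TPM scale Cox6a2 met the filter on low values only through the HA libraries, the group in which it was higher. That call therefore adds no support to the difference. The pseudocount of 1 is above every FPKM value of Cox6a2, with means of 0.21 in TABS and 0.54 in HA. It therefore shrinks both fold changes, to a different degree on the FPKM and TPM scales. Exons of Itgad overlap 10.3% of the exon bases of Cox6a2, and the strand setting is not stated in the labels. Cox6a2 took 0.074% ± 0.021 of the summed FPKM of the pair in TABS and 0.172% ± 0.021 in HA (SD, n = 4 each). Of the 6 striated muscle genes looked up, Ckm, the muscle creatine kinase, was also low and separated, at 0.17 ± 0.08 FPKM in TABS and 0.46 ± 0.04 FPKM in HA (SD, n = 4 each). The 6 summed to 0.16 to 0.27 FPKM per library in TABS and 0.45 to 0.66 FPKM in HA. Ckm alone of the 6 separated the groups, since Myod1, Myog and Myh1 were listed at 0 and Acta1 and Tnnt3 overlapped. The part of cells expressing such muscle genes in the Cox6a2 values was not tested.

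**Figure D3:**
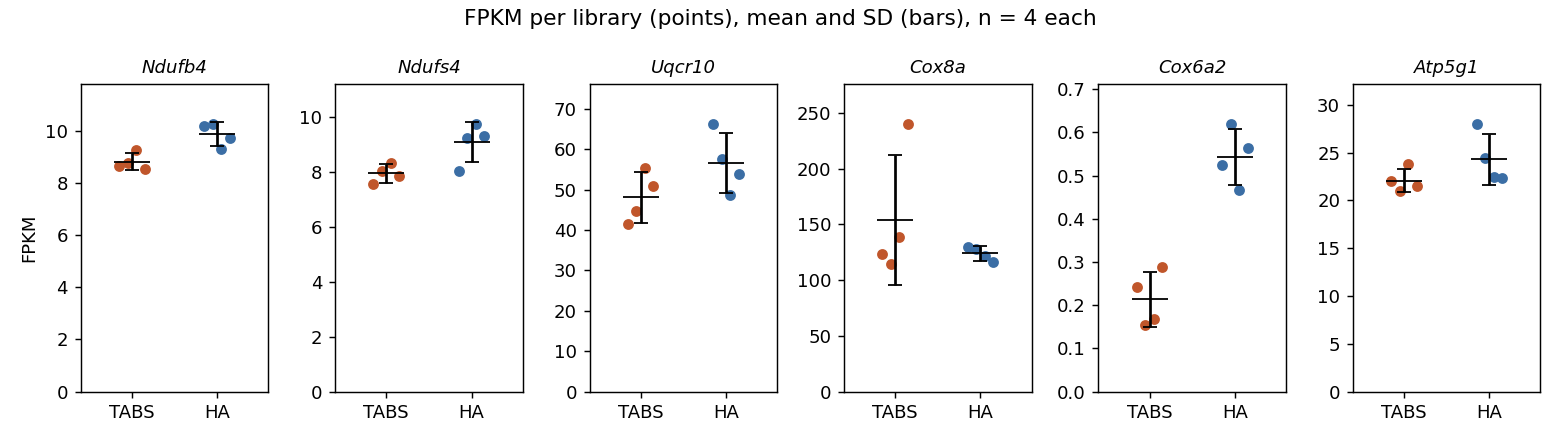
FPKM per library (points) with mean ± SD (bars, n = 4 each) of Ndufb4, Ndufs4, Uqcr10, Cox8a, Cox6a2 and Atp5g1, TABS left and HA right. The groups do not overlap in Ndufb4 and Cox6a2, and the Cox8a mean in TABS is carried by TABS 4 at 240 FPKM.

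In complex V, Atp5a1, the alpha subunit of the catalytic head, averaged 262 ± 11.3 FPKM in TABS and 252 ± 3.74 FPKM in HA (SD, n = 4 each, 0.06, limma adjusted p = 0.445). The highest fold change was that of Atp5j, a subunit of the peripheral stalk, at 18.5, 18.5, 19.1 and 18.3 FPKM in TABS, against 16.0, 16.3, 18.9 and 18.6 FPKM in HA (0.09, limma adjusted p = 0.382). HA 1 and HA 2 lay below all TABS libraries and HA 3 and HA 4 among them. Exons of Gabpa, the gene of the ETS factor named above, overlap 12.7% of the exon bases of Atp5j. The smallest p-value was that of Atp5s, at 2.10, 1.98, 2.25 and 1.88 FPKM in TABS, against 2.47, 2.30, 2.45 and 2.20 FPKM in HA (-0.14, limma adjusted p = 0.164, with the 2 groups overlapping). After correction for GC content and length its fold change was 0.01.

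The members tended to be high or low in the same libraries. After removal of group means, the mean pairwise correlation of log2 values across the 8 libraries was 0.22 over the 80 members, against 0.01 over all tested genes. By complex it was 0.25 in I, 0.22 in II, 0.26 in III, 0.25 in IV and 0.16 in V. After correction for GC content and length it was 0.15 over the members and below 0.01 over all tested genes. With 1 library left out the members' value ran from 0.16 (without TABS 3) to 0.27 (without HA 1). These are descriptions across genes that share the same 8 libraries, and the difference from other genes was not tested.

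The libraries that stood high or low did so in several complexes. In TABS, complexes I and III were highest in TABS 3, at 1180 and 457 summed FPKM, and lowest in TABS 1, at 1090 and 409. Complexes II, IV and V were highest in TABS 4 instead, at 200, 1220 and 1371. Of these, II and IV were lowest in TABS 2, at 187 and 1021, and V in TABS 1, at 1312. In HA, complexes I, II, III and V were highest in HA 1, at 1213, 201, 488 and 1392 summed FPKM, and lowest in HA 4, at 1078, 180, 425 and 1287. Complex IV was highest in HA 2, at 1199, and lowest in HA 3, at 1115. Ribosomal protein genes took a share of all FPKM of 6.95% in TABS 3 and 6.49% in TABS 1, and of 7.34% in HA 1 and 6.52% in HA 4. The part of this share in the pattern was not tested.

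**Figure D4:**
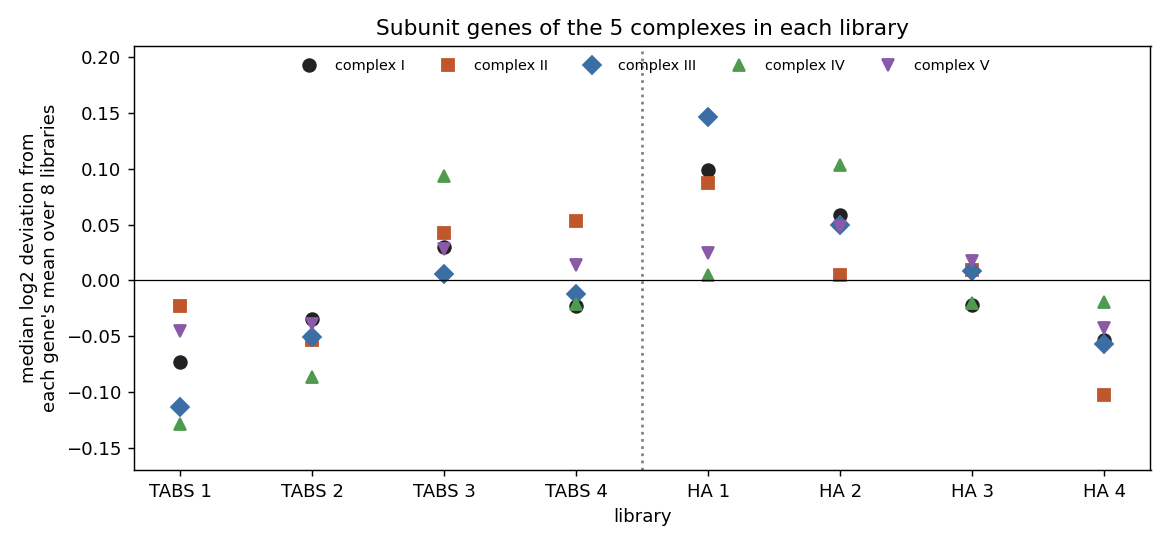
Median log2 deviation of the tested subunit genes of each complex from each gene's mean over 8 libraries, by library (TABS left, HA right). TABS 1 and TABS 2 lie below 0 in all 5 complexes and HA 1 and HA 2 above 0, while TABS 3 lies above 0 and HA 4 below 0 in all 5.

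The subunits that mitochondrial DNA encodes lay lower than the nuclear ones of the same complexes. In complex I the 7 mitochondrial genes had a median log2 fold change of -0.39, beside -0.05 for the 36 nuclear ones. In complex III, mt-Cytb stood at -0.32, beside -0.07 for 9 nuclear genes. In complex IV the 3 mitochondrial genes had a median of -0.10, beside -0.05 for 13, and in complex V the 2 had one of -0.39, beside -0.02 for 17. At an unadjusted limma p under 0.05, 10 of the 13 mitochondrial genes were lower in TABS, against 10.8% of all tested genes that were lower. After adjustment 1 of the 13 was called, where 7.38% of all tested genes were, and this was mt-Nd2 (-0.42, limma adjusted p = 0.0153, and 0.0736 after correction for GC content and length). After that correction the mitochondrial medians were -0.19, -0.14, 0.05 and -0.17 for complexes I, III, IV and V, and the nuclear ones -0.03, -0.02, 0.03 and 0.01. The difference between the 2 sets was not tested.

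Per library, the ratio of nuclear to mitochondrial summed FPKM in complex I was 0.103, 0.108, 0.148 and 0.117 in TABS, against 0.107, 0.106, 0.0856 and 0.0824 in HA. TABS 3 was highest, HA 3 and HA 4 were lowest, and the remaining TABS libraries lay near HA 1 and HA 2. All mitochondrial subunits summed to 35898, 35503, 29579 and 33553 FPKM in TABS, against 36247, 36026, 41846 and 43132 FPKM in HA, with all TABS libraries below all HA libraries. As a share of all FPKM, which summed to less in TABS, they took 11.7%, 11.6%, 9.70% and 10.9% in TABS, against 11.4%, 11.5%, 13.2% and 13.8% in HA, and the groups overlapped. Since the nuclear sums of complex I ran from 1090 to 1180 FPKM in TABS and from 1078 to 1213 FPKM in HA, most of the range of the ratio came from the mitochondrial side.

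Fold changes of the members went weakly with transcript properties. Over the 80 members the Spearman correlation with transcript length was 0.23 and that with GC content 0.18, beside 0.12 and 0.35 over 11277 genes, as descriptions across genes. The 40 members with transcripts shorter than 1135 bases, the members' median, had a median of -0.05, and the 40 others one of -0.02. After correction for GC content and length both medians were within 0.01 of 0. The members' correlation with GC content was then -0.32, and that over all tested genes 0.01, so the correction turned the relation in the members and did not remove it.

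**Figure D5:**
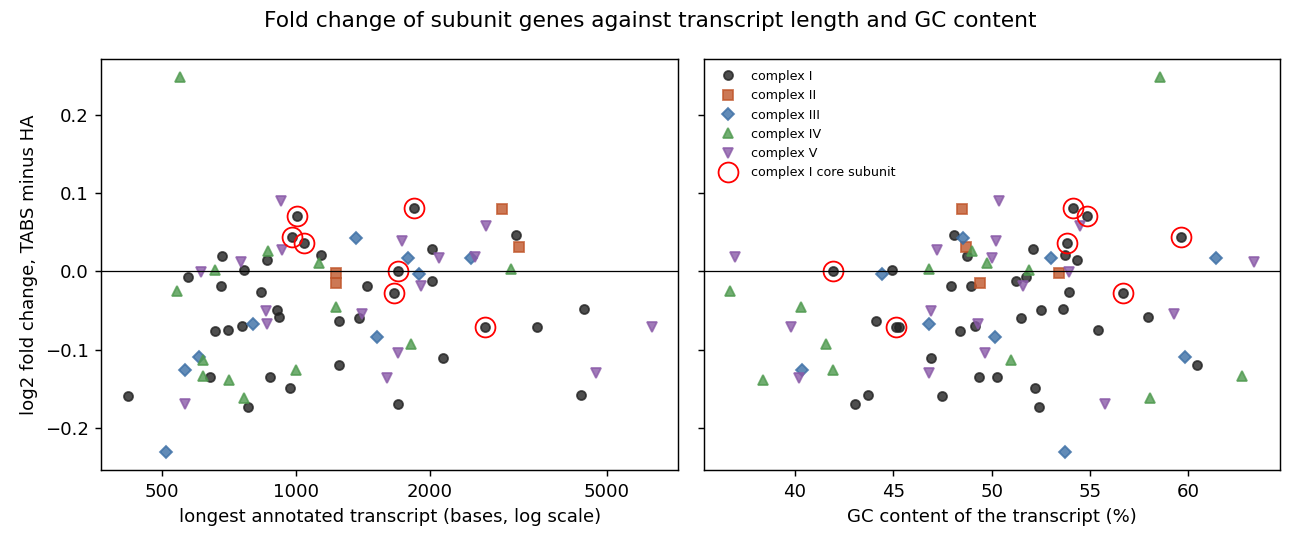
Log2 fold change (TABS minus HA) of the tested subunit genes against the longest annotated transcript (left, log axis) and its GC content (right), with symbols by complex and circles for the 7 complex I core subunits. The correlation with length is 0.23 and that with GC content 0.18 (Spearman, 80 genes), and 5 of the 7 core genes lie at or above 0.

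Among the listed genes that build, feed or regulate the chain, none was called by limma on the deposited values, where 7.38% of all tested genes were. At an unadjusted limma p under 0.05 the share over all tested genes was 24.1%, beside which the counts of each list stand. Of 44 tested assembly factors 0 were called, with a median log2 fold change of -0.00 (2 at an unadjusted limma p under 0.05), and 2 complex IV assembly factors passed only after the GC and length correction. These were Cox20 (0.21, limma adjusted p = 0.0446, against 0.05 and 0.653 without it) and Coa5 (0.15, limma adjusted p = 0.0451, against 0.14 and 0.129 without it). With that correction 947 of 11277 genes were called. Tmem70, which helps to assemble ATP synthase, stood at 14.5, 14.97, 14.8 and 6.30 FPKM in TABS, against 15.3, 15.1, 15.9 and 17.1 FPKM in HA (-0.37, limma adjusted p = 0.358). All TABS libraries lay below all HA libraries, by little except for TABS 4, the library in which Cox8a was high. Of 17 citric acid cycle genes 0 were called (median 0.03, 2 at an unadjusted limma p under 0.05). The nearest was Dld, a subunit shared by the pyruvate and 2-oxoglutarate dehydrogenases, at 14.5 ± 0.92 FPKM in TABS and 16.8 ± 1.04 FPKM in HA (SD, n = 4 each, -0.20, limma adjusted p = 0.0717), and its fold change was -0.09 after the GC and length correction (limma adjusted p = 0.156).

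Of 10 tested regulators of mitochondrial biogenesis 0 were called (median 0.00, 1 at an unadjusted limma p under 0.05, against 24.1% of all tested genes). Nrf1 averaged 1.61 ± 0.08 FPKM in TABS and 1.52 ± 0.14 FPKM in HA, and Gabpa 5.63 ± 0.63 FPKM in TABS and 6.05 ± 0.63 FPKM in HA (SD, n = 4 each). Ppargc1a, the inducible coactivator PGC-1alpha, was near 0, at 0.006 ± 0.002 FPKM in TABS and 0.007 ± 0.005 FPKM in HA. Polrmt, the mitochondrial RNA polymerase, stood at 7.84, 7.28, 7.47 and 7.35 FPKM in TABS, against 6.69, 6.99, 6.25 and 7.03 FPKM in HA, with all TABS libraries above all HA libraries (0.13, limma adjusted p = 0.126). After the GC and length correction its fold change was 0.06 (limma adjusted p = 0.518). Of 7 tested carriers, channels and the ATPase inhibitor gene 0 were called (median -0.02, 0 at an unadjusted limma p under 0.05), and the ADP/ATP carrier Slc25a4 averaged 117 ± 3.52 FPKM in TABS and 121 ± 2.31 FPKM in HA (SD, n = 4 each).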

How the data were processed

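The deposited table held 1 FPKM value per gene and library, made by the authors. Per the submitters' processing notes, fastp, STAR, DESeq2 and GRCm38 were used, and the sources used here give no versions, annotation, gene lengths or strand setting. The table held no read totals. Low values of single-exon genes piled up at steps, by which 1 FPKM in 1 kilobase stood for 18.2 to 26.0 fragments per library, but only 22.4% to 24.1% were whole multiples within 0.02, so no count test was run.

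Symbols, transcript lengths and GC content came from GENCODE M21 (55154 of 55335 identifiers matched). Genes with at least 1 FPKM in 4 of 8 libraries were fitted on the log2 scale of the deposited values plus a pseudocount of 1 (limma 3.58.1, R 4.3.3), with trended moderated variances, two-sided, and Benjamini-Hochberg adjustment over all 11280 genes. The fit was tested on simulated data. The GC and length correction removed a per-library spline fit (5 degrees of freedom each).

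The members, lists and alternatives were chosen with earlier results of these data known. Per complex, the highest, the lowest and the most extreme members by p were to be named, with the paralog sets and called genes, and further members were named after their values were seen. Exons of another gene overlap at least 10% of the exon bases in Cox5a, Ndufa2, Ndufa13, Ndufb5, Ndufb6, Ndufb9, Ndufb11, Uqcrc2, Atp5j and Atp5o. At least 10% of the 50-base words occur in other genes' transcripts in 14 tested members, Ndufa12, Ndufab1, Ndufb4, Ndufb9, Ndufs3, Ndufs5, Uqcrb, Cox5b, Cox7a2l, Cox7c, Atp5g1, Atp5g2, Atp5h and Cycs, whose values are uncertain. The group letters in the library names (H for TABS, L for HA) do not match the group names and could not be checked against any gene, and a swap would turn every direction given. A result on 1 member is not reported here.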

Additional observations from a re-analysis of the deposited data

Results flagged for a closer look

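In groups of 4, 13 of 210 groups held a library whose gap to the nearest other one exceeded Dixon's 95% critical value, where chance gives about 1 in 20. In TABS, TABS 1 was lowest in Ndufb3 (29.8 FPKM, the others 34.3 to 35.2) and in Uqcrfs1 (39.9, the others 45.9 to 46.4) and highest in mt-Atp6 (558, the others 496 to 506). TABS 2 was lowest in Atp5o (69.4, the others 74.98 to 75.6), and TABS 3 highest in Atp5g2 (59.2, the others 58.0 to 58.1). In HA, HA 1 was highest in Ndufb11 (63.7 FPKM, the others 50.04 to 51.5) and lowest in Atp5f1 (29.2, the others 35.1 to 35.8) and Cycs (21.2, the others 22.8 to 23.0). HA 2 was highest in Ndufc2 (62.8, the others 54.7 to 55.6), and HA 3 in Cox4i2 (0.033, the others listed at 0). HA 4 was highest in Cox7b2 (2.36, the others 1.498 to 1.55) and in Cox6b2 (0.034, the others listed at 0) and lowest in Atp5a1 (246, the others 253 to 254).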

How the results depend on the processing

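No tested member was called in the fit as reported, and 19 other settings were tried. A member was called lower in 3 of them, 1 gene each time, Cox6a2 with no filter on low values and after rescaling to TPM, and Ndufs4 without HA 1, so that the count of members lower ran from 0 to 1 with 1 library left out. Under TPM, Cox6a2 passed the filter on low values only through HA. The count of all genes called was 833, and 542 with no filter, 230 with the replicate number as a block and 331 with the block and the GC and length correction. It ran from 415 (without TABS 3) to 718 (without HA 1) with 1 library left out. The median log2 fold change of complex V was 0.021 after rescaling to TPM, against -0.02, and no other median moved beyond the spread between libraries. Rescaling to TPM called 907 genes higher and 252 lower, against 506 and 327. The median log2 fold change of all tested genes under TPM was 0.04, against 0.01. Counting Ndufa4 with complex I moved no median beyond that spread. With 1 library left out, the medians ran from -0.07 to -0.01 in complex I, -0.02 to 0.04 in II, -0.12 to -0.03 in III, -0.10 to -0.03 in IV and -0.05 to -0.01 in V. Correlations of deviations between same-numbered libraries ran from -0.10 to 0.10. With so few pairs they cannot show whether the replicate numbers pair the samples. The replicate block called no member. Depth is unknown, and if the smallest step in the table is 1 fragment, changes of low members such as Cox6a2 rest on few fragments.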
